A study of Rattus norvegicus with 232 samples.

Results

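The nuclear genes for the subunits of oxidative phosphorylation were examined in whole brain of the Hybrid Rat Diversity Panel. Members were the genes of the version 7.1 RefSeq table whose symbols begin with Ndufa, Ndufb, Ndufc, Ndufs, Ndufv, Sdh, Uqcr, Cox4i, Cox5, Cox6, Cox7, Cox8 or Atp5, without provisional LOC names and without pseudogene names. This gave 96 of 20859 genes. The prefixes also take in assembly factors of complexes I and II, the complex V inhibitor and a copy named Cox7a2l2. Ndufs6, Cox7a1, Atp5mpl, Atp5mkl1 and Atp5mgl4 were listed under LOC names only and were left out by the rule.

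Ribosomal RNA-depleted total RNA had been sequenced from untreated rats of inbred strains, each library coming from 1 animal. The design text calls them naive males, and for the HXB/BXH panel and the inbred strains it covers the study's methods give an age of about 70 to 90 days. The table held 214 libraries, which were averaged to 197 animals of 74 strains. There were 88 animals of 30 recombinant inbred HXB/BXH strains, bred from SHR/OlaIpcv and BN-Lx/Cub, 43 animals of 19 FXLE/LEXF strains, bred from F344/Stm and LE/Stm, and 66 animals of 25 inbred strains that include these progenitors. Most strains (54) had 3 animals, 15 had 2 and 5 had 1. No transgene or treatment was involved. A strain differs from another by its whole genome and its breeding source together, and in part by batch and tissue handling. No batch held animals of both recombinant inbred panels. The study's methods describe tissue of the HXB/BXH panel, kept in one colony with its progenitors, as stored in liquid nitrogen. Brains of other inbred strains came from suppliers and were placed in RNAlater. Where these coincide with strain or panel, they cannot be told apart from it. Brain samples are mixtures of cell types, and fewer cells of a type cannot be told apart from less RNA per cell.

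Oxidative phosphorylation is carried out by multi-subunit complexes of the inner mitochondrial membrane. Complexes I to IV pass electrons from NADH and succinate to oxygen, and all of these but complex II pump protons. Complex V, the ATP synthase, uses the proton gradient to make ATP. Most subunits are nuclear genes whose products are imported and joined with the few subunits made from mitochondrial DNA, and neurons depend heavily on this supply of ATP. The mitochondrially encoded subunits were not analysed here.

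Expression values were on a log2 scale and are called log2 values below. They are not scaled for gene length, so the level of a gene was compared between strains, and between genes it served only to set apart members below the median value of the table. Of the 96 members, 85 lay above the median gene of the table, whose mean log2 value was 8.32. The median log2 value of a library ran from 8.18 to 8.42.

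Promoters are shown for 4 members on which the results turn. They are Ndufs5, which had the highest strain R2, Atp5po and Cox5b, which follow the group most closely, and Atp5pf, which runs against it. Each runs from 250 bases before to 50 after the annotated start (RefSeq, GRCr8, written 5′ to 3′ in the direction of the gene): Ndufs5 at chr5:141264353-141264652 on the minus strand, Atp5po at chr11:44657434-44657733 on the minus strand, Cox5b at chr9:46417587-46417886 on the plus strand and Atp5pf at chr11:37375052-37375351 on the minus strand. Capitals mark every match, on either strand, to GCGCATGC (the core bound by NRF1), CCGGAAGT (ETS factors, among them GABP) or AAGATGGCG (YY1).
Ndufs5: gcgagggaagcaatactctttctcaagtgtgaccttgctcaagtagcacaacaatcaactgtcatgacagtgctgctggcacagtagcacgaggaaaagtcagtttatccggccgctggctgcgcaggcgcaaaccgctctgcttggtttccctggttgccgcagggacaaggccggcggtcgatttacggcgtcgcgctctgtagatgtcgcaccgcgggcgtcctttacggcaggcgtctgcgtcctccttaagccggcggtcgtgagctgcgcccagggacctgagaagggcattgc
Atp5po: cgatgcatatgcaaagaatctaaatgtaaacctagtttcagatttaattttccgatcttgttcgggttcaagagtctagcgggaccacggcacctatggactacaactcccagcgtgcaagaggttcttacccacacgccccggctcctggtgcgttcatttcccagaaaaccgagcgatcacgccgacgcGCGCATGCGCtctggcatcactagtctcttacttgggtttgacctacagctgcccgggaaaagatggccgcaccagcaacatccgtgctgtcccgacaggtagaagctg
Cox5b: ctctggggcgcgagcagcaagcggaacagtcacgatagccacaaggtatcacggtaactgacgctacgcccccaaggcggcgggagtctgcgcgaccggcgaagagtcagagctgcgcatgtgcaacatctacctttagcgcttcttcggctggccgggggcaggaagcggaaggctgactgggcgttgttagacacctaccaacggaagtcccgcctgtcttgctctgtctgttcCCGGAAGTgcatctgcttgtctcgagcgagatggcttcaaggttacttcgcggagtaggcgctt
Atp5pf: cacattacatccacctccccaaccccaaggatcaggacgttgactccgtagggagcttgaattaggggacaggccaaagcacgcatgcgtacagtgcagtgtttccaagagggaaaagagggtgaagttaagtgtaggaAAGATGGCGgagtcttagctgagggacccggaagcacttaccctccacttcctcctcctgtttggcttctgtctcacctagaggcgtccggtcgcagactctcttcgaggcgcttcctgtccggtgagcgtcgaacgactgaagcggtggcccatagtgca

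Of these motifs, NRF1 was matched in Atp5po, ETS in Cox5b and YY1 in Atp5pf, and none in the window of Ndufs5. Promoters were listed for 86 members. The NRF1 motif was in 10 of them (11.6%, against 2.66% of all 27457 promoters), the ETS motif in 8 (9.30% against 4.01%) and the YY1 motif in 10 (11.6% against 1.93%). CCAAT, the NF-Y motif, was in 30 (34.9% against 37.7%).

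The first question was how much of the variation in each member lies between strains. The measure was the broad-sense heritability, R2, the share of the variance over animals that lies between strain means. With 74 strains and 197 animals an R2 of 0.372 is expected where strain has no effect. The median R2 of the members was 0.413, against 0.451 over all genes, and 21 of 96 members exceeded that median. The limma moderated F-test at a false discovery rate of 5% called 9 of 96 members (9.38%), against 37.3% of all genes. The share of members called was thus lower than the background. With the batch characteristic of the labels added to the fit, 32 of 96 members (33.3%) were called against 57.0% of all genes, and the 9 were among them. In the version 5 table, with 132 animals of 45 strains and none of FXLE/LEXF, 32 of 85 were called against 63.7%. Calls gained in these settings are given below only for members named by rule, and stand against these shares. R2 values of version 5 rest on other animals and are not like for like.

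**Figure D1:**
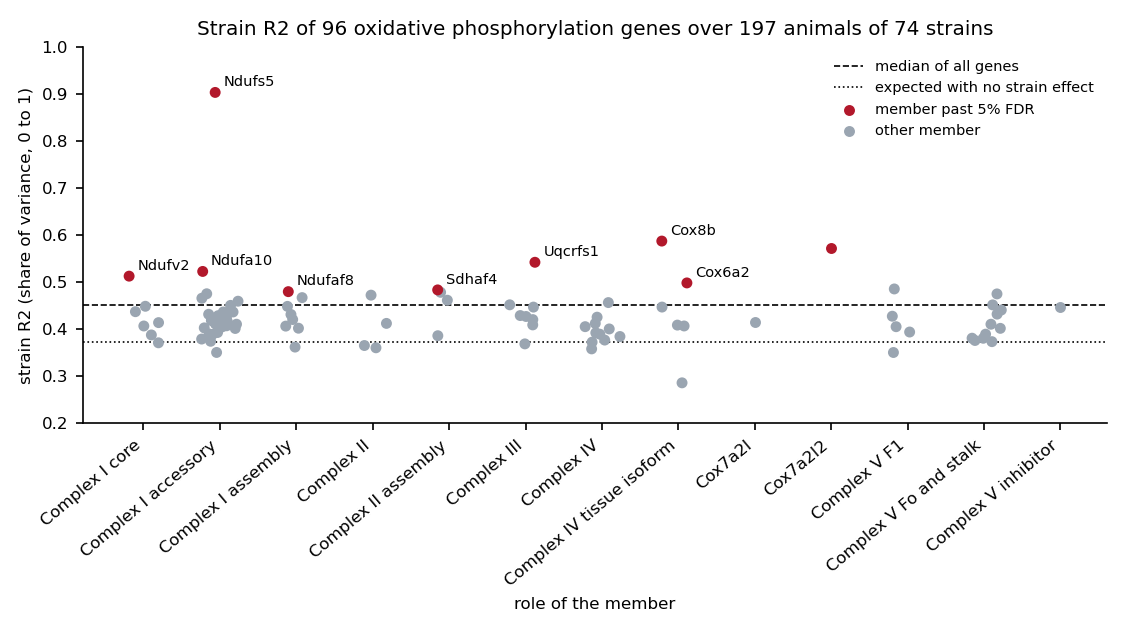
Strain R2 (vertical axis, from 0.2 to 1) of the 96 members grouped by role (horizontal axis); red points passed the limma test at a 5% false discovery rate, the dashed line is the median of all genes (0.451) and the dotted line the value expected with no strain effect (0.372). Ndufs5, at 0.903, stands apart from all other members, of which the next is Cox8b at 0.587.

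Members were then taken by role, and each count of a role stands against the 37.3% of all genes called. Among the core subunits of complex I, which carry the flavin and iron-sulphur centres, 1 of 7 was called. This was Ndufv2, an iron-sulphur subunit of the NADH-oxidising arm (R2 0.513, adjusted p = 0.0161). Its strain means ran from 11.59 ± 0.18 (SD, n = 2) in COP/CrCrl over a median of 11.79 to 11.92 ± 0.15 (n = 3) in BN-Lx/Cub, a 1.26-fold range on this scale. Here and below, the lowest and highest of the 69 strains with at least 2 animals were picked by these same values, so the gap between them is a description and adds nothing to the test. The call of Ndufv2 was lost when animal number 1, 2 or 3 was left out of every strain (adjusted p = 0.297, 0.280 and 0.0683).

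Of the 29 accessory subunits of complex I, which surround the core and do not themselves carry electrons, 2 were called. Ndufa10 had an R2 of 0.523 (adjusted p = 0.0254) over a narrow range, from 12.09 ± 0.14 (n = 2) in COP/CrCrl to 12.32 ± 0.09 (n = 3) in LEXF2C/Stm. The call of Ndufa10 was lost under quantile normalization (adjusted p = 0.0691), in the version 6 table (0.0660) and without animal number 1, 2 or 3 (0.564, 0.246 and 0.239), and held with batch in the fit (0.0300), after median centring (0.00717) and in version 5, where R2 was 0.755 (8.8e-12). The other was Ndufs5, described separately. Ndufab1, the mitochondrial acyl carrier protein, had the lowest R2 of the accessory subunits at 0.351, but in version 5 it was called (R2 0.559, adjusted p = 2.53e-04). Of the 8 complex I assembly factors only Ndufaf8 was called (R2 0.480, adjusted p = 0.0381). Its mean log2 value of 7.95 lay below the median gene, and its call was lost without animal number 1, 2 or 3.

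No subunit of complex II, the succinate dehydrogenase, was called among 4, and the membrane anchor Sdhc had an R2 of 0.360, though in version 5 it was called (adjusted p = 0.00928). Of its 4 assembly factors, Sdhaf4, which acts on the flavinylated catalytic subunit, was called (R2 0.484, adjusted p = 0.0422). Sdhaf4 was lowest in BXH5/Cub (8.57 ± 0.07, n = 3) and highest in LH/MavRrrc (9.03 ± 0.07, n = 3). The call was lost after median centring of the libraries (adjusted p = 0.0612) and without animal number 1, 2 or 4 (0.323, 0.540 and 0.0511).

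In complex III, 1 of 8 subunits was called. Uqcrfs1, the Rieske iron-sulphur protein, had an R2 of 0.542 (adjusted p = 0.0029). Its values were 11.82, 11.70 and 11.79 in the 3 animals of HXB17/Ipcv and 12.05, 12.26 and 12.27 in those of BXH12/Cub. These were the lowest and highest strains, with means 1.34-fold apart. The call was lost without animal number 2 or 3 (adjusted p = 0.269 and 0.125).

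In complex IV, cytochrome c oxidase, none of the 11 subunits of general use was called, and the tissue isoforms gave 2 of 6. Against 37.3% of all genes, 2 of 6 is not a raised share. Cox8b, the muscle-type counterpart of Cox8a, had an R2 of 0.587 (adjusted p = 4.6e-05). Its log2 values were 3.26, 3.40 and 3.08 in GK/FarMcwi and 4.08, 4.11 and 3.99 in BN/NHsdMcwi, the lowest and highest strains, and the call was lost without animal number 3 (adjusted p = 0.0992). Cox6a2, the muscle-type counterpart of Cox6a1, had an R2 of 0.498 (adjusted p = 0.0149), with means from 5.35 ± 0.05 (n = 3) in BXH8/Cub to 6.21 ± 0.15 (n = 3) in GK/FarMcwi. The call of Cox6a2 was lost without animal number 1 or 2 (adjusted p = 0.267 and 0.333). GK/FarMcwi was thus the lowest strain for one muscle-type isoform and the highest for the other. The ubiquitous Cox8a had an R2 of 0.358. Calls were gained in other settings: Cox4i1, the main form of subunit 4, with batch in the fit (R2 0.542, adjusted p = 0.00632) and in version 5 (0.00820), Cox7a2 in version 6 (6.1e-37) and the tissue isoform Cox4i2 with batch (0.0290). Ndufa4l2, a form of Ndufa4 counted here among the tissue isoforms of complex IV, was called with batch (0.0145), after quantile normalization (0.0339) and in version 5 (0.0100). Shares of all genes called were 57.0% with batch, 63.7% in version 5, 32.3% in version 6 and 37.0% after quantile normalization.

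Both muscle-type isoforms had mean log2 values below that of the median gene. Only 3 of 6 skeletal muscle markers were in the table, and their summed deviation followed Cox6a2 with r = 0.32 and Cox8b with r = -0.20 over the strains, as a description. Cox7a2l2, a further called member below the median gene, was listed beside Cox7a2l, which encodes a factor of respiratory supercomplexes. Its R2 was 0.572 (adjusted p = 1.19e-04), with values of 4.44, 4.47 and 3.87 in HXB17/Ipcv and of 6.68, 7.05 and 6.29 in BXH12/Cub. Its 2 animals of COP/CrCrl, at 4.74 and 7.00, were as far apart as these strains, and the call was lost without animal number 1 (adjusted p = 0.217). Strain means of Cox7a2l2 and Cox7a2l were hardly related (r = 0.05 over 74 strains).

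In complex V no member was called. Atp5mc2, a gene for the c ring, was called with batch in the fit (adjusted p = 0.0199) and in version 5 (0.00471). In these settings 57.0% and 63.7% of all genes were called. The catalytic F1 part had 5 members, the membrane and stalk part 11, and the inhibitor was the remaining one. Atp5f1d, the delta subunit of F1, had an R2 of 0.350, under the value expected with no strain effect. It had a wide spread between strains, from 10.60 ± 0.34 (n = 2) in HXB10/Ipcv to 11.41 ± 0.16 (n = 2) in HXB2/Ipcv. The SD between animals of a strain was 0.298, more than the SD of 0.176 over strain means. In version 5 it was called (R2 0.469, adjusted p = 0.0220).

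The strain effect was then fitted within each panel. In the HXB/BXH strains 5 of 96 (5.21%) were called against 19.1% of all genes: Ndufs5, Cox7a2l2, Cox8b, Sdhaf4 and Ndufaf1, a complex I assembly factor. In the inbred strains 4 (4.17%) were called against 19.3%: Ndufs5, Cox8b, Cox6a2 and Cox5a, a subunit of the matrix face of complex IV. In the FXLE/LEXF strains 1 (1.04%) was called against 4.61%: Ndufa13, an accessory subunit also known as GRIM19 (adjusted p = 0.0429). The call of Ndufa13 was lost after median centring and without animal number 1 or 2. Without animal number 3, 7 members (7.29%) were called in FXLE/LEXF against 6.52% of all genes, so the order of these shares turned there. Ndufs5 and Cox8b were called in the same 2 panels. Whether a strain effect differs between panels was not tested.

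The second question was whether the members vary together. The mean of the 85 members above the median gene, each centred over animals, is called the module mean. It had an R2 of 0.424. Its SD was 0.0499 over strain means and 0.0708 between animals of a strain, so animals of a strain differed more than strains did. Strains with at least 2 animals ran from -0.14 ± 0.03 (SD, n = 2) in COP/CrCrl and -0.13 ± 0.11 (n = 3) in HXB17/Ipcv to 0.08 ± 0.08 (n = 3) in HXB25/Ipcv. The whole range was 1.17-fold. Animals ran from -0.24 to 0.20. The single animal of BUF/MnaMcwi gave 0.12. Of 17 batches, 15 held at least 5 animals and their means lay between -0.017 and 0.029. Means of several animals spread less than single animals, so this range is no test of batch.

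**Figure D2:**
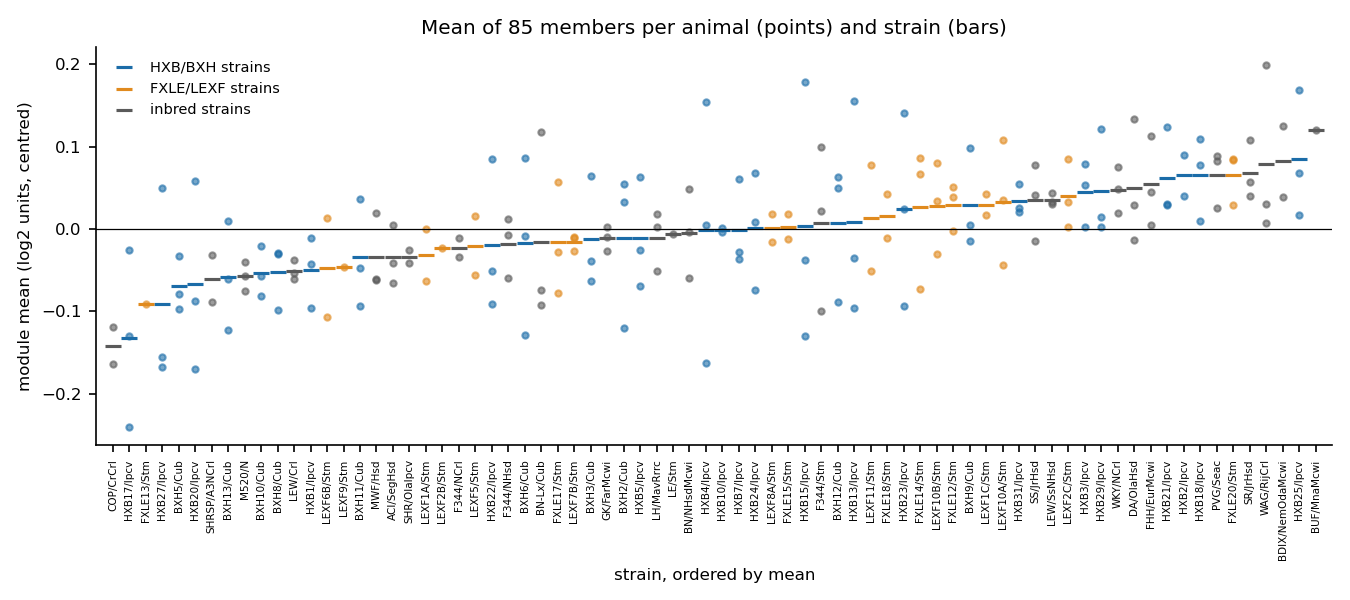
Module mean of the 85 members above the median gene (vertical axis, log2 units, each member centred on its mean over animals) for 74 strains ordered by their mean (horizontal axis); points are animals, bars are strain means and colours are the panels. Most strains overlap in their animals, and the extremes are COP/CrCrl at -0.14 and BUF/MnaMcwi, with 1 animal, at 0.12.

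Members were then related to the mean of the other members. All correlations are across strains or animals of the same libraries and the same normalisation, and are given as descriptions. For the 85 members above the median gene the median Pearson r was 0.47 over 74 strain means and 0.52 over the deviations of animals from their strain, and for all 96 it was 0.44 over strain means. Pairs of the 85 were related more loosely, with a median r of 0.23 over strain means and 0.25 within strains. A shared pattern was thus as visible between animals of one strain as between strains.

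The closest followers belonged to 3 complexes. Atp5po, the stalk subunit that confers oligomycin sensitivity on the ATP synthase, had r = 0.82, and its strain means ran from 12.02 ± 0.11 (n = 2) in COP/CrCrl to 12.40 ± 0.08 (n = 3) in FXLE20/Stm. Cox5b, the zinc-binding subunit of complex IV, had r = 0.81. Ndufa1, an accessory subunit of the membrane arm of complex I, and Cox6b1, which lies on the outer side of complex IV, each had r = 0.76. None of these was called by strain, with R2 of 0.432 for Atp5po and 0.392 for Cox5b, though Ndufa1 was called in version 5 (R2 0.508, adjusted p = 0.00348).

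**Figure D3:**
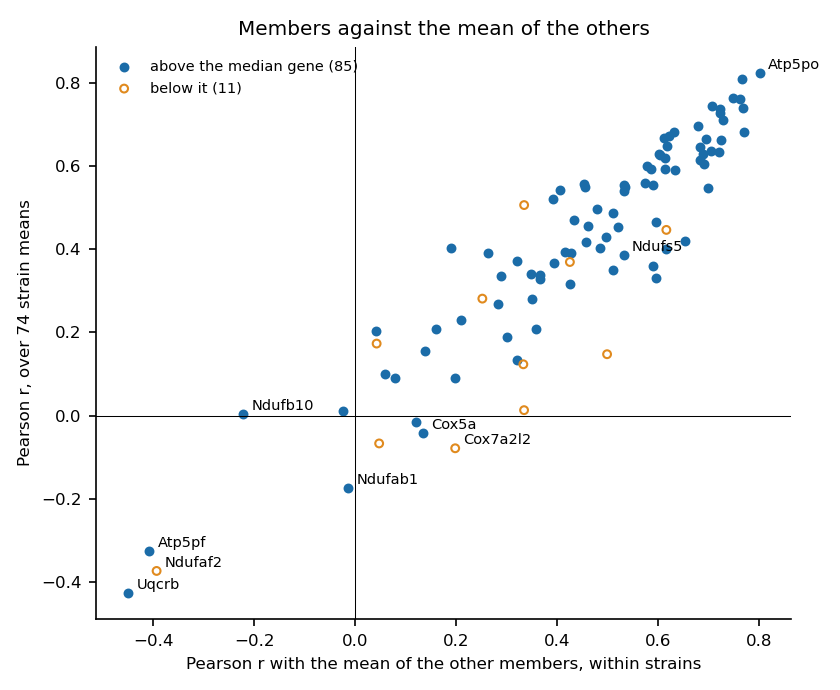
Pearson r of each member with the mean of the other members, within strains (horizontal axis) and over 74 strain means (vertical axis); filled points are the 85 members above the median gene and open points the 11 below it. Most points lie in the upper right, Atp5po is the highest at 0.82 and Uqcrb the lowest at -0.43 over strain means.

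Of the 96 members, 8 had an r below 0 over strain means and 6 within strains. Uqcrb, a small subunit of complex III that contacts ubiquinone, had r = -0.43 over strains and -0.45 within them. Atp5pf, coupling factor 6 of the ATP synthase stalk, had r = -0.33 and -0.41. The assembly factor Ndufaf2, below the median gene, had r = -0.37. These 3 were negative on both scales. Ndufab1 (-0.17) and Cox5a (-0.04) were close to 0 within strains, at -0.01 and 0.13.

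Uqcrb and Atp5pf, from different complexes, were positively related (r = 0.77 over strains, 0.82 within). Uqcrb was lowest in FXLE20/Stm at 10.42 ± 0.08 (n = 3), the strain in which Atp5po was highest, and highest in LEXF10B/Stm at 10.99 ± 0.11 (n = 3). Neither Uqcrb (R2 0.369, adjusted p = 0.533) nor Atp5pf (R2 0.381, adjusted p = 0.454) passed the strain test.

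A principal component analysis of the strain means of the 85 members gave a first component with 29.6% of the variance, which followed the module mean (r = 0.87), and a second with 23.1%. The first leans in part on a strain with 1 animal. On it BUF/MnaMcwi scored 19.5, the next highest strain, BDIX/NemOdaMcwi, 8.25 and the lowest, COP/CrCrl, -13.6. On the second, 24 members had an r above 0.5 and 7 an r below -0.5. At its positive end were Ndufv1, the NADH-binding core subunit of complex I (r = 0.94), the iron-sulphur core subunit Ndufs8 (0.91), Uqcrc1, a core protein of complex III (0.89), and Cox4i1, the main form of subunit 4 of complex IV (0.88). At its negative end were the assembly factors Ndufaf4 (-0.61) and Ndufaf1 (-0.60), Uqcrb (-0.59), Uqcrc2, the second core protein of complex III (-0.56), and Ndufs1, the largest iron-sulphur subunit of complex I (-0.56). BN-Lx/Cub had the lowest score (-10.6) and HXB2/Ipcv the highest (11.0). Other gene lists moved with this component over strains: endothelial markers had r = 0.43, cytosolic ribosomal proteins 0.40 and microglial markers 0.33. Their part in it was not tested.

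Partners within a complex did not always share a pattern. The pairs below come from the ends of the second component, so the signs of their r follow in part from that choice. Ndufv1 and Ndufs1, which sit in the same arm of complex I, had r = -0.44 over strains. Each instead followed a complex III core protein, Ndufv1 with Uqcrc1 at r = 0.92 and Ndufs1 with Uqcrc2 at r = 0.78. Within strains these r were -0.49, 0.93 and 0.87, so the relations were not particular to strain means. The limma test called none of Ndufv1, Ndufs1 and Uqcrc2 by strain (adjusted p = 0.246, 0.125 and 0.122). Cox4i1 was lowest in BN-Lx/Cub (13.03 ± 0.10, n = 3), as was Uqcrc1 (12.30 ± 0.07, n = 3). Uqcrc1 was called by strain with batch in the fit (R2 0.536, adjusted p = 0.00787) but not without it (0.178). Cox4i1 was highest in HXB2/Ipcv (13.59 ± 0.15, n = 2).

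**Figure D4:**
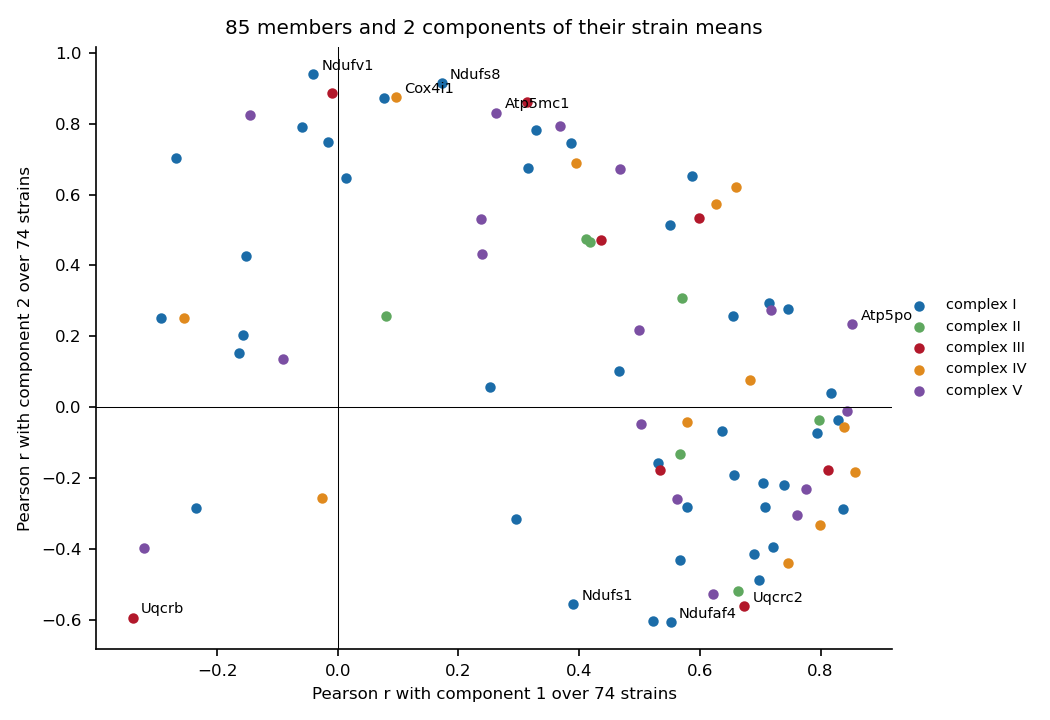
Pearson r over 74 strains of each of 85 members with the first (horizontal axis) and second (vertical axis) principal component of their strain means, coloured by complex. Members of all complexes spread along both axes, with Ndufv1 at the top (0.94 on component 2), Ndufaf4 and Uqcrb at the bottom and Atp5po towards the right.

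Isoform sets were compared in the same way. Atp5mc1 and Atp5mc2, which encode the same mature c subunit of the ATP synthase ring, had r = 0.83 over strains, but Atp5mc3, a further gene for that subunit, had r = 0.25 with Atp5mc1 and 0.00 with Atp5mc2. Cox6a2 followed Cox6a1 (r = 0.45) and Cox6b2, the testis-type form, followed Cox6b1 (r = 0.51). Cox8b and Cox8a were unrelated over strains (r = 0.02). Cox4i2, the lung-type form, had r = 0.31 with Cox4i1, and Ndufa4l2 had r = -0.26 with Ndufa4. Cox7a2 had r = 0.54 with Cox7a2l. Within strains, in the order given, these r were 0.86, 0.13, -0.04, 0.49, 0.31, 0.15, 0.62, -0.40 and 0.60.

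Fitting the strain effect beside the mean of the other members called 16 of 96 members (16.7%), against 41.4% of all genes fitted with the module mean. The 9 named were called again, and 7 more were added. These were Atp5f1a and Atp5f1b, the alpha and catalytic beta subunits of F1 (adjusted p = 0.0455 and 0.0360), Atp5mc2 (0.0329), Ndufb2 (0.0375), the complex II assembly factor Sdhaf1 (0.0344), Uqcrc1 (0.0220) and Cox4i2 (0.0244). The call of Uqcrc1 was lost after median centring (adjusted p = 0.0612), in version 6 (0.103) and without animal number 1 or 2 (0.212 and 0.466). Of the 16, 3 were called again without animal number 1 (18.7% of all genes called), 3 without 2 (15.2%) and 6 without 3 (33.0%). After median centring 11 were called again (42.4%), and in version 6, where 85 members were matched, 5 (37.5%). The strongest in this fit was Ndufs5, with an adjusted p of 2.76e-41, followed by Cox8b at 1.89e-06.

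Ndufs5 encodes a small accessory subunit of complex I that faces the intermembrane space. It had an R2 of 0.903 (adjusted p = 1.06e-36). Only 49 genes of the table had an R2 at or above it, and the gap to the next member was 0.316. With the mean of the other members Ndufs5 had r = 0.39 over strain means and 0.53 within strains. The medians of the 85 members were 0.47 and 0.52. By the rn6 annotation used with the version 5 table the gene lies at chr5:141390580-141405453 on the minus strand.

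The animals of BN-Lx/Cub had Ndufs5 log2 values of 11.65, 11.06 and 11.35, and those of SHR/OlaIpcv 10.20 and 9.93. The strains did not overlap. Of the animals of SHR/OlaIpcv, the first was the mean of 12 libraries and the other of 6. Ndufs5 was the only one of 96 members (1.04%) called between these progenitors, against 4.51% of all genes (2.63% higher in BN-Lx/Cub and 1.87% lower). It was higher in BN-Lx/Cub by 1.29 log2 units (SE 0.15, adjusted p = 2.77e-11), and by 1.16 with 1 library per animal. With batch in the fit it was again the only member called, against 0.738% of all genes, so the order of the shares turned.

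Across the 30 HXB/BXH strains, Ndufs5 strain means ran from 10.26 in BXH5/Cub over a median of 10.55 to 11.64 in HXB21/Ipcv, whose animals were at 11.44, 11.74 and 11.74. They fell into separate ranges. The widest gap lay between 10.65 and 11.19, with 19 strains below and 11 above it. Among the 25 inbred strains the widest gap lay between 10.56 and 10.91, and 5 strains were below it: COP/CrCrl, M520/N, SHR/OlaIpcv, SHRSP/A3NCrl and WKY/NCrl. The lowest was COP/CrCrl, with animals at 9.72 and 9.74. In the 19 FXLE/LEXF strains the means covered only 10.58 to 11.26 and no gap exceeded 0.19.

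A row of the same table is listed by RefSeq as Ndufs5-ps2, a pseudogene of this gene on chromosome 2 of GRCr8. It was looked at after the Ndufs5 values had been seen. Its log2 values followed those of Ndufs5 in reverse, with r = -0.93 over 74 strains, -0.97 in HXB/BXH, -0.92 in inbred strains and -0.14 in FXLE/LEXF, where both varied little. Among animals of a strain r was -0.15. It averaged 5.52 ± 0.36 (n = 3) in BN-Lx/Cub and 10.08 ± 1.04 (n = 2) in SHR/OlaIpcv. The pseudogene was lower in BN-Lx/Cub by 4.56 log2 units (adjusted p = 6.12e-21). The 19 HXB/BXH strains with low Ndufs5 were the 19 with the highest Ndufs5-ps2, and the same held for the 5 inbred strains.

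When the 2 rows were added on the linear scale, the difference between BN-Lx/Cub and SHR/OlaIpcv came to 0.24 log2 units in place of 1.29. The SD over animals was 0.261 for the sum and 0.421 for Ndufs5, and the R2 of the sum was 0.758. The sequences of gene and pseudogene were not compared here. Where a copy is close in sequence, the counting step can split reads between the rows, so the value of either row alone is uncertain, and the part of this in the strain difference was not tested.

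The strain means of a neighbouring gene also ran opposite to those of Ndufs5. Rhbdl2, a rhomboid protease gene at chr5:141491223-141507892 (rn6, plus strand), had r = -0.87 with Ndufs5 over all strains, -0.96 in HXB/BXH, -0.77 in inbred strains and -0.22 in FXLE/LEXF, and 0.03 among animals of a strain. In the version 6 table r was -0.94 and in version 5 it was -0.12. It averaged 3.93 ± 0.07 (n = 3) in BN-Lx/Cub and 5.86 ± 0.39 (n = 2) in SHR/OlaIpcv, or -1.93 log2 units (SE 0.22, adjusted p = 1.37e-11). Akirin1 (chr5:141415075-141430659) and Macf1 (chr5:141039468-141363524), the other neighbours looked at, had r = 0.10 and -0.14 and were not called between the progenitors (adjusted p = 0.905 and 0.449).

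**Figure D5:**
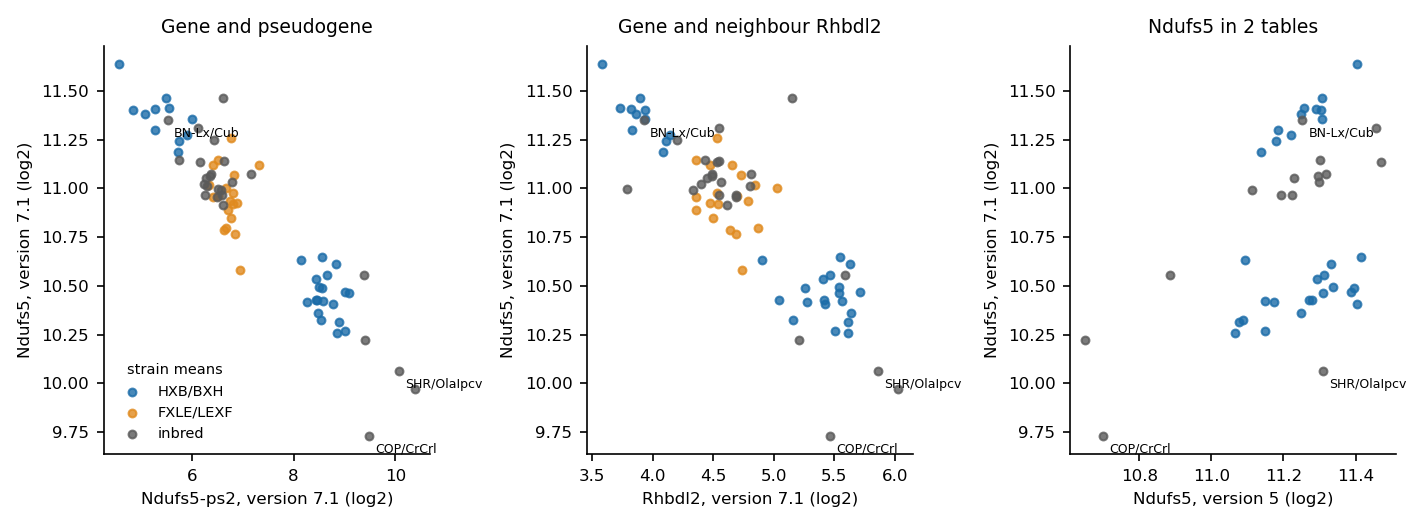
Strain means of Ndufs5 (vertical axis, log2 value, version 7.1 table) against those of Ndufs5-ps2 and of Rhbdl2 in the same table, and against Ndufs5 in the version 5 table (horizontal axes, log2 values), coloured by panel. HXB/BXH strains form separate groups of 19 and 11 on the left and middle plots (r = -0.97 and -0.96), while on the right plot the same strains overlap along the horizontal axis.

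The deposited tables of other versions were normalised separately, so values were compared only within each. In the version 6 Ensembl table, which also has a row for the pseudogene, Ndufs5 was higher in BN-Lx/Cub by 1.64 log2 units, its r with Ndufs5-ps2 was -0.91 and its r with version 7.1 was 0.99 over 58 strains. Ndufs5-ps2 itself was closer between the progenitors there than in version 7.1, at 9.90 ± 0.34 (n = 3) in BN-Lx/Cub and 10.78 ± 0.15 (n = 3) in SHR/OlaIpcv. In the version 5 table, which has no row named Ndufs5-ps2, Ndufs5 was 11.25 ± 0.33 (n = 3) in BN-Lx/Cub and 11.31 ± 0.11 (n = 3) in SHR/OlaIpcv, which differed by -0.06 log2 units (adjusted p = 0.888). The SD over HXB/BXH strain means was 0.104 there and 0.466 in version 7.1. Version 5 values had r = 0.42 with version 7.1 over 45 strains for Ndufs5, 0.93 for Rhbdl2 and a median of 0.69 for 84 other members. The sum of Ndufs5 and Ndufs5-ps2 in version 7.1 had r = 0.32 with Ndufs5 in version 5, lower than Ndufs5 alone. The R2 of Ndufs5 in version 5 was 0.608 (adjusted p = 1.07e-05), with COP/CrCrl at 10.70 ± 0.19 (n = 3). The progenitor difference of Ndufs5 was therefore seen in versions 6 and 7.1 only, and a strain difference of some kind in all 3 tables.

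By transcript, the strain difference was greatest in the predicted Ndufs5 transcript with an R2 of 0.915, which averaged 10.81 ± 0.35 (n = 3) in BN-Lx/Cub and 8.16 ± 0.30 (n = 2) in SHR/OlaIpcv. The curated transcript had an R2 of 0.777, with 9.92 ± 0.52 and 8.86 ± 0.15. The remaining predicted transcript had an R2 of 0.444.

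Other members also have copies. RefSeq lists 106 pseudogenes of 46 members, and 4 of them had a row of their own in this table. Apart from Ndufs5-ps2 these were Atp5mk-ps2 (r = 0.56 with Atp5mk), Ndufa13-ps1 (0.29 with Ndufa13) and Ndufb4-ps9 (0.10 with Ndufb4), and none was called by strain. A negative relation of this kind was seen for Ndufs5 only among these 4. Mean log2 values were 7.11 for Ndufs5-ps2, 5.76 for Atp5mk-ps2, 2.05 for Ndufa13-ps1 and 1.71 for Ndufb4-ps9. Rows as low as Ndufa13-ps1 and Ndufb4-ps9 can say little of such a relation.

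Between SHR/OlaIpcv and WKY/NCrl, a hypertensive strain and its normotensive control, no member was called by limma against 0.825% of all genes (0.34% higher and 0.484% lower in SHR/OlaIpcv). By the study's methods SHR/OlaIpcv was kept with the HXB/BXH panel and WKY/NCrl came from a supplier. Colony and tissue handling therefore cannot be told apart from strain in this pair. At an unadjusted p under 0.05 there were 8 of 96 members (8.33%, against 8.49% of all genes). Ndufs5 was 10.06 ± 0.19 (n = 2) in SHR/OlaIpcv and 10.56 ± 0.14 (n = 3) in WKY/NCrl, a difference of -0.49 (SE 0.15, adjusted p = 0.109). In version 5 this difference was 0.43 in the other direction (adjusted p = 0.013), and 15 of 85 members were called against 24.5% of all genes.

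F344/Stm and LE/Stm, the FXLE/LEXF progenitors, could be compared only through a single animal of LE/Stm, which was assumed to vary like the other strains. Its level of Alb, the liver gene for albumin, was 23.2. The next highest strain mean was 13.4, in F344/Stm, the other strain of this pair. The counts that follow rest on the single LE/Stm animal and say nothing of the strain LE/Stm apart from it. No member was called by limma against 0.796% of all genes (0.134% higher and 0.662% lower in F344/Stm). At an unadjusted p under 0.05 there were 2 of 96 (2.08%, against 12.8%). The module mean of the LE/Stm animal lay within the range of the other strains, and leaving it out with LEW/Crl gave 9 members called over all strains against 36.4% of all genes.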

How the data were processed

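The authors sequenced rRNA-depleted total RNA (Illumina TruSeq Stranded) from whole brain and deposited normalized expression on a log2 scale, not counts, so read depth is unknown and intervals for counting error cannot be given. Per the labels the tools were cutadapt 1.9.1, Bowtie2 2.3.4.3 and 2.4.5, HISAT2 2.1.0 and 2.2.1, StringTie 1.3.5 and 2.2.1, RSEM 1.3.1 and 1.3.3 and DESeq2. The study's methods describe removal of 1 unwanted factor and a regularised log transformation on rn6 with Ensembl 96, without naming a table version. The build and steps behind the deposited log2 values of versions 6 and 7.1 are not given in the sources used here. Such a transformation draws low values towards the mean, so where it was used, fold differences of low genes are understated.

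The members and lists were chosen with earlier results of these data known. In version 7.1, 73 spike-in rows were left out. Libraries of the same strain and animal number were averaged, and strains were taken from the labels. Animal numbers are those of the sample titles, which for FXLE12/Stm differ from the numbers in the library names. The batch was the batch characteristic, which differs from the batch in the title for some samples. An animal with libraries of several batches, such as those of SHR/OlaIpcv, was given the lowest batch number. A LEXF9/Stm library whose name holds another batch number kept that of its sample. limma 3.58.1 (R 4.3.3) fitted a moderated F-test over strains and contrasts between strains across all 20859 genes. Benjamini-Hochberg adjusted p-values were taken over all genes, with a threshold of 5%. p-values measure the spread between animals as labelled. R2 is the sum of squares between strains over the total. With batch in the fit it is a partial R2, the share of the variance left after batch that strain explains. Its expected value with no strain effect then differs. The fit was tested on simulated data. The members named were the 8 called with the highest R2, the 4 with the lowest R2 above the median gene, the 6 with the lowest adjusted p beside the module mean, those called between strains, the 4 most and 4 least related to the other members, and isoform sets. Other names were chosen after their values were seen. Alternatives were another scaling (centring of libraries on their median, or quantile normalization), a filter on low values, batch, the animal number as a block, leaving out each animal number, the variance trend, 1 library per animal, leaving out LEW/Crl and LE/Stm, and the tables of versions 6 and 5, in which 85 members were matched by symbol.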

Additional observations from a re-analysis of the deposited data

How the results depend on the processing

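Each count of members called is followed by the share of all genes called in that setting. Over all strains the 9 members (37.3% of all genes) became 5 of 85 with the filter on low values (34.3%), 32 with batch in the fit (57.0%), 5 in version 6 (32.3%), 32 in version 5 (63.7%), and 3 to 8 when an animal number was left out (14.4 to 35.2%). In HXB/BXH the 5 (19.1%) became 3 after median centring (18.9%), 3 with the filter (14.7%), 10 with batch (32.1%), 3 in version 6 (16.3%), 10 in version 5 (23.7%), and 2 to 5 without 1 animal number (8.04 to 19.1%). In FXLE/LEXF the 1 (4.61%) became 0 after median centring (4.90%), 2 after quantile normalization (4.68%), 2 with batch (5.09%), 2 with the variance trend (5.08%), 8 in version 6 (15.6%), and 0 to 7 without 1 animal number (0.288 to 6.52%). In inbred strains the 4 (19.3%) became 2 with the filter (12.2%), 2 with batch (18.0%), 15 in version 5 (34.2%), and 2 to 4 without 1 animal number (5.75 to 17.2%). Beside the module mean the 16 (41.4%) became 44 with batch (60.6%), 7 in version 6 (37.5%), 41 in version 5 (67.1%), and 3 to 14 without 1 animal number (15.2 to 39.5%). For the contrast of BN-Lx/Cub with SHR/OlaIpcv the 1 (4.51%) became 2 in version 6 (2.15%) and 2 in version 5 (4.33%), and 1 to 2 without 1 animal number (0.949 to 6.19%). In version 7.1 SHR/OlaIpcv has animals 1 and 4 only, so leaving out either leaves it 1 animal, which is assumed to vary like the other strains. Between SHR/OlaIpcv and WKY/NCrl 15 were called in version 5 (24.5%), and between F344/Stm and LE/Stm 1 after quantile normalization (1.09%). Leaving out an animal number gave a median R2 of members from 0.414 to 0.606 and an R2 of the module mean from 0.423 to 0.607, and fewer animals per strain raise R2 by construction. For the rest the cause was not tested. Of the 8 called members with the highest R2, only Ndufs5 kept its call whichever animal number was left out. Ndufs5 changed direction in version 5, at -0.057 between BN-Lx/Cub and SHR/OlaIpcv and 0.43 between SHR/OlaIpcv and WKY/NCrl. Cox7a2, not called in version 7.1, had an R2 of 0.916 in version 6. Of 15 results on named members that passed the test, 168 values over the alternatives passed it again, 28 did not and 1 changed direction. Of 24 that did not pass, 314 values again did not, 14 did and 1 changed direction.

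Animal numbers did not pair the animals: deviations of same-numbered animals of different strains had a median correlation of 0.012, against -0.0072 for different numbers. With the animal number as a block 10 members were called over all strains against 38.3% of all genes, and between BN-Lx/Cub and SHR/OlaIpcv 1 was called against 1.97% of all genes. No value could be had for FXLE/LEXF in version 5, nor for F344/Stm against LE/Stm without LE/Stm. The libraries F344/NCrl 2 and SHRSP/A3NCrl 1, planned to be left out, had no column in the version 7.1 table. Without read counts, the part that depth plays in single low members such as Cox8b and Cox7a2l2 cannot be given.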

Other observations

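Other genes of the pathway and of its surroundings were listed by name, and 37.3% of all genes were called by strain. Of 33 further assembly factors measured, 9 were called, led by the complex I factors Acad9 (R2 0.815) and Foxred1 (0.638) and the haem-synthesis factor Cox15 (0.627), and the mean of the 33 followed the module mean with r = 0.72 over strains and 0.69 within them. Of 5 other genes of the respiratory chain 3 were called: Cycs, the cytochrome c gene, and the electron transfer flavoprotein genes Etfb and Etfdh. Their mean had r = 0.60. Of 13 regulators of mitochondrial genes 2 were called, the coactivator Ppargc1a (R2 0.480) and Tfb1m (R2 0.539), and their mean had r = 0.22 with the module mean. Ppargc1a itself had r = -0.29. Of 88 cytosolic ribosomal protein genes, which serve translation in the cytosol, 24 were called, and their mean followed the module mean with r = 0.71 over strains and 0.82 within them. These correlations are over the same libraries and carry no test.

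The genes outside the group whose strain means were most like the module mean over 74 strains were Tpi1, a glycolytic enzyme (r = 0.88), Nme2, a nucleoside diphosphate kinase (0.84), Lage3 (0.80), Psmb3, a proteasome subunit (0.80), and Mrps17, a mitochondrial ribosomal protein (0.79).

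Cell type markers were set beside the module mean, and their calls stand against the same 37.3% of all genes. Neuronal markers had r = -0.32 over strains (2 of 6 called by strain), astrocyte markers -0.11 (4 of 6), oligodendrocyte markers 0.33 (5 of 6), microglial markers 0.28 (6 of 6), endothelial markers -0.23 (3 of 5), choroid plexus markers 0.05 (2 of 6), blood markers 0.19 (6 of 6), muscle markers 0.10 (2 of 3) and liver markers -0.05 (5 of 5). Within strains the neuronal markers had r = -0.46 and the microglial markers 0.47. Their part in the shared pattern was not tested. The highest strain-mean score of the liver list was 10.5, in LE/Stm, where Alb reached 23.2, Serpina1 20.7 and Fgb 19.1.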
